A study of Mus musculus with 8 samples.

Results

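Clustered replication-dependent histone genes encode most of the linker histone H1 and the core histones H2A, H2B, H3 and H4 that package new DNA. They were taken as every protein-coding gene of the count table whose mouse symbol in GENCODE M21 begins with Hist1h, Hist2h, Hist3h or Hist4. There were 67 such genes among the 52636 of the table. By class, 6 encode H1, 18 H2A, 18 H2B, 12 H3 and 13 H4. The Hist1 cluster on chromosome 13 holds 54, the Hist2 cluster on chromosome 3 holds 10, the Hist3 genes on chromosome 11 are 2, and Hist4h4 lies alone on chromosome 6. Another 3 genes with such symbols are annotated as pseudogenes and were left out.

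RNA of whole spleen came from C57BL/6 mice of 6 weeks in 4 groups of 2 samples. The groups were Lmna R527C mutants at day 7 after 4 Gy of irradiation, wild-type mice at day 7 after 4 Gy, Lmna R527C mutants at day 0 without irradiation, and wild-type mice at day 0 without irradiation. Lmna encodes lamins A and C of the nuclear lamina, and R527C is a substitution of 1 amino acid, so a gene count does not check the genotype labels. The labels do not give zygosity, sex, litter or whether the 2 samples of a group are separate mice, so p-values reflect no more than the spread within these pairs, part of which may be technical.

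Replication-dependent histone mRNAs are the metazoan mRNAs that normally end without a poly(A) tail. Their 3′ end is a short stem-loop that the stem-loop binding protein SLBP holds, and the pre-mRNA is cut just after it with the help of the U7 small nuclear RNP. The genes are transcribed as cells copy their DNA in S phase, under the coactivator NPAT, and the mRNAs are degraded when replication ends. Some members also make longer, polyadenylated transcripts, which are known from cells that have left the cell cycle. Kits that select poly(A) RNA therefore take up these genes in part only. The libraries came from an mRNA sequencing kit, so a level below is the level captured by the kit and not the whole pool of histone mRNA.

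The stem-loop was searched for in the annotated transcripts, with at most 1 mismatch, and was found for 43 of the 67 genes. These sequences are shown because the transcript end decides how a histone mRNA enters such a library. The 6 forms below differ in the stem and in the loop, with the stem arms in capitals and the loop in lower case, and each is named by 1 gene that carries it.
Hist1h1c: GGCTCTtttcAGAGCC
Hist1h1t: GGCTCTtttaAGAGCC
Hist2h2ac: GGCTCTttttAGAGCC
Hist1h4c: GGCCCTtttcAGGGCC
Hist1h4i: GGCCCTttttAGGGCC
Hist1h4a: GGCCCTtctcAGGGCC

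The Hist1h1c form was the most frequent, with 26 genes of classes H1, H2A, H2B and H3. The Hist1h1t form was carried by 6 genes of H1, H2B and H3, and the Hist2h2ac form by that gene alone. The other stem belonged to H4 genes only. Its 3 forms were carried by 7 genes (as Hist1h4c), by 2 genes (as Hist1h4i) and by Hist1h4a alone. In 22 of the 67 genes an annotated transcript runs on for 100 bases or more after the stem-loop, in 21 the transcript ends within 100 bases of it, and in 24 no stem-loop lies in an annotated transcript. Hist1h1c runs on for 840 bases, Hist3h2a for 1643 and Hist4h4 for 2445.

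Promoter sequences from RefSeq (GRCm38.p6, 250 bases before to 50 bases after the start) were matched for 62 of the 67 genes. The promoters of Hist1h2ak, Hist1h4k and Hist1h1c are shown because Hist1h2ak and Hist1h4k were the genes outside the steadily present ones with the highest mean levels over the 8 libraries, and Hist1h1c had the highest mean level of the 67. Capitals mark CCAAT, searched on both strands (ATTGG on the strand shown), and TATAAA, searched on the strand of the gene.
Hist1h2ak, chr13:21753863-21754162, minus strand: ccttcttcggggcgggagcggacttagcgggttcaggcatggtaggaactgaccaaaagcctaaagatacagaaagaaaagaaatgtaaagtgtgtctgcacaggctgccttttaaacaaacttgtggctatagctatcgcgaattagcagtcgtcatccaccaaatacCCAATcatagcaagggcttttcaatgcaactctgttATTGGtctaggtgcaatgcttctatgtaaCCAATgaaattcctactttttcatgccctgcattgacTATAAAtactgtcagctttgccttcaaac
Hist1h4k, chr13:21750504-21750803, minus strand: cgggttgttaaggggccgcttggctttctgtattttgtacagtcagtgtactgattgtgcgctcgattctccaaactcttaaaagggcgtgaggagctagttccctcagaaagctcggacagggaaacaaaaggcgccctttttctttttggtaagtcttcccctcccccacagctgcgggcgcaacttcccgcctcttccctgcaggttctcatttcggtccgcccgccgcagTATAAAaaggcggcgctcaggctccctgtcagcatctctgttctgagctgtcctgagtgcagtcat
Hist1h1c, chr13:23738557-23738856, plus strand: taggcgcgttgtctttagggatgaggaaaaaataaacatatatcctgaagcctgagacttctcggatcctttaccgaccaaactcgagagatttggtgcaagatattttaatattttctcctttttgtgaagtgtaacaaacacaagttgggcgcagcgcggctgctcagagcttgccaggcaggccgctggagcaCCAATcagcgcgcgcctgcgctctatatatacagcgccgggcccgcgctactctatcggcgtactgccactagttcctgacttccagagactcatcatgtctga

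CCAAT was found in 53 of the 62 promoters (85.5%), against 37.4% of all 32851 promoters of that length. The split by class was sharp, with CCAAT in all 6 H1, 18 H2A, 16 H2B and 10 H3 promoters matched but in 3 of 12 H4 promoters. TATAAA stood in 30 promoters (48.4%), among them 8 of 12 of H4, against 8.3% of all promoters. The octamer ATTTGCAT, searched on both strands, was found in 13 promoters (21%), 7 of H2A and 6 of H2B, against 1.7% of all promoters. Windows of neighbouring genes can overlap, as do those of Hist1h2ak (21753863-21754162) and Hist1h2bn (21753826-21754125) on chromosome 13. A match found on both strands can then count for each of the genes. A match describes the letters in the window and is not a site of binding.

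The 8 libraries held 12100784 to 19455470 counts, and levels are given as CPM, the count scaled to a common library size after TMM scaling. A count of 0 allows up to 3 counts, a floor that stood at 0.131 to 0.35 CPM per library and covers counting error only. Marker genes of B cells, T cells and macrophages each had a count in every library. The B cell gene Fcer2a lay under this floor in irradiated mutant replicate 1, at 0.117 CPM. Summed per type, these markers stood at 114 CPM or more in each library, so RNA of these types was present. In bulk tissue, fewer cells of a type and less RNA per cell cannot be told apart. Xist was at 1029 to 1776 CPM in the 4 irradiated libraries and at no more than 0.262 CPM in the 4 unirradiated ones, while 4 Y-linked genes summed to 0 CPM in irradiated libraries and to 264 to 299 CPM in unirradiated ones. Irradiation, day and sex-linked expression therefore cannot be told apart in any comparison of day 7 with day 0. The 2 irradiated mutant libraries differed most (r = 0.877 across genes in log2 CPM, against 0.942, 0.988 and 0.982 within irradiated wild-type, unirradiated mutant and unirradiated wild-type pairs), so calls, medians and the fold changes of the mutants that carry the account are also given with one of them left out. The library that then stands alone in its group is assumed to vary like the other groups.

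Of the 67 genes, 43 passed the filter on low counts and were tested (5 H1, 8 H2A, 13 H2B, 8 H3 and 9 H4). A gene could pass through a single high group, so counts over these 43 describe the genes tested and not the family. A further 16 genes had 1 to 77 counts in all 8 libraries together. The last 8 had no count in any library, namely Hist1h2aa, Hist1h2an, Hist1h2br, Hist2h2aa1, Hist2h2aa2, Hist2h2bb, Hist2h3b and Hist2h3c1. In the 5 of these that belong to Hist2, every window of 50 bases also occurs in a transcript of another gene, and another annotated gene covers all exon bases. Histone genes are near-copies of each other, and the median gene shared 54.0% of its 50-base windows with transcripts of other genes. The authors' treatment of such reads is not stated in the sources used here, so a zero or a low level is uncertain to that extent.

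Summed over the 67 genes, levels were 942 and 178 CPM in irradiated mutants, 454 and 357 CPM in irradiated wild type, 129 and 136 CPM in unirradiated mutants, and 142 and 165 CPM in unirradiated wild type. Both irradiated groups lay above both unirradiated groups, and irradiated mutant replicate 1 lay far above the rest. The means were 560 ± 541 CPM in irradiated mutants, 405 ± 68.6 CPM in irradiated wild type, 133 ± 5.37 CPM in unirradiated mutants and 153 ± 15.8 CPM in unirradiated wild type (SD, n = 2 each). On these means the sum was 4.22 times higher in irradiated than in unirradiated mutants and 2.64 times higher in irradiated than in unirradiated wild type. It was 1.38 times as high in irradiated mutants as in irradiated wild type, and 0.864 times as high in unirradiated mutants as in unirradiated wild type. Without irradiated mutant replicate 1 the log2 ratio of the sums was 0.37 in mutants, against 2.08 with it, and that of irradiated mutants over irradiated wild type was -1.15, against 0.47 with it.

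Levels within the family were uneven, and the cause was not tested. Only 7 genes reached 2 CPM in all 8 libraries: Hist1h1c, Hist1h2af, Hist1h2bc, Hist1h4i, Hist2h2be, Hist3h2a and Hist3h2ba. They were picked out by their levels and so describe the data only. They summed to 476 and 136 CPM in irradiated mutants, 381 and 276 CPM in irradiated wild type, 108 and 117 CPM in unirradiated mutants, and 119 and 141 CPM in unirradiated wild type. The other 60 genes together summed to 466 and 41.6 CPM in irradiated mutants, 72.7 and 81.2 CPM in irradiated wild type, 20.7 and 19.7 CPM in unirradiated mutants, and 23.3 and 23.5 CPM in unirradiated wild type. The 60 other genes thus made up 49.5% of the captured histone level in irradiated mutant replicate 1 and 14.3% to 23.4% of it in the other 7 libraries. Among the 7 were 4 of the 22 genes that run on past the stem-loop and 3 of the 24 with none annotated. None of the 21 genes that end within 100 bases of it was among them.

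**Figure D1:**
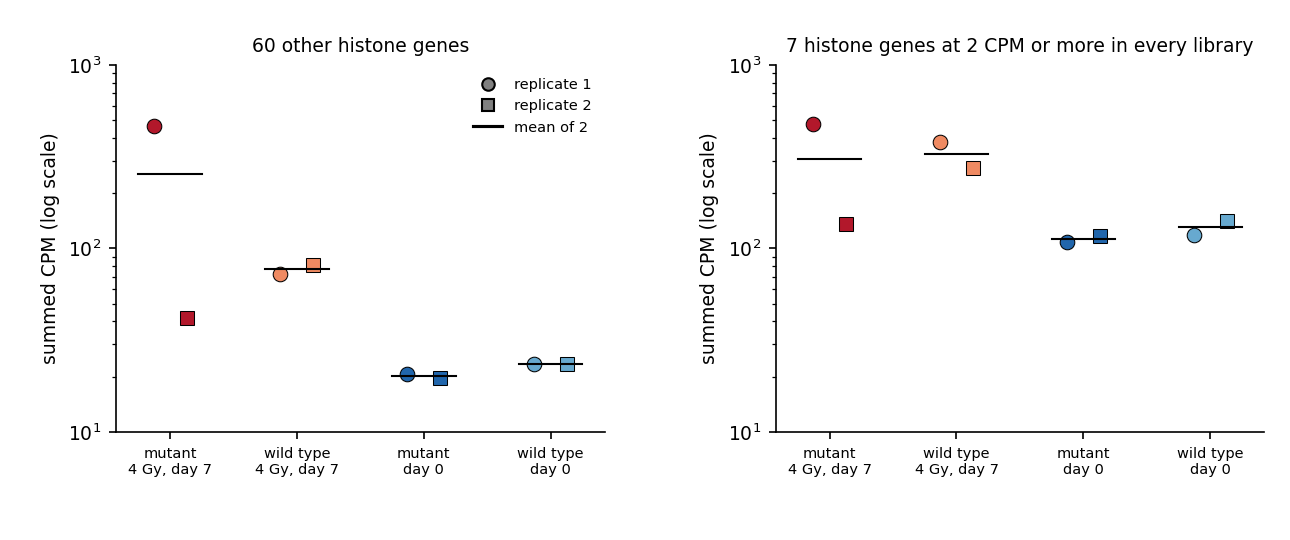
Summed CPM (log scale) of the 60 other histone genes (left) and of the 7 histone genes at 2 CPM or more in every library (right), by group, with a point for each library and a line at the mean of 2. Irradiated mutant replicate 1 holds 466 CPM of the 60 genes, against 19.7 to 81.2 CPM in the other libraries. For the 7 genes it holds 476 CPM against 381 CPM in irradiated wild-type replicate 1. The sets were split by level in these same libraries.

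Hist1h1c (ENSMUSG00000036181.2, chr13:23738808-23740367), which encodes the linker histone H1.2, was the most abundant member in counts. It had 161 and 49.7 CPM in irradiated mutants, 91.0 and 78.9 CPM in irradiated wild type, 42.9 and 51.3 CPM in unirradiated mutants, and 43.7 and 62.1 CPM in unirradiated wild type. The irradiated wild-type libraries lay above both unirradiated ones, and the irradiated mutant libraries lay on either side of the upper unirradiated mutant value. Per kilobase of annotated exon, the highest mean levels over the 8 libraries were those of Hist1h2af (58.6 CPM per kb), Hist1h4i (57.3 CPM per kb) and Hist1h1c (46.5 CPM per kb). Hist1h4k (29.7 CPM per kb), Hist1h2bc (27.1 CPM per kb) and Hist1h2ak (24.5 CPM per kb) came next. The level of Hist1h4k and Hist1h2ak in this order rested on irradiated mutant replicate 1: over the other 7 libraries their means were 8.08 and 6.95 CPM per kb, below 21.8 for Hist1h2bc, 14.6 for Hist3h2ba and 9.04 for Hist2h2be. Hist1h4i, Hist1h2af and Hist1h1c stayed the top 3 over those 7 libraries, at 48.9, 48.6 and 38.4 CPM per kb.

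Hist1h2bc encodes a form of H2B, and was at 74.2 and 30.9 CPM in irradiated mutants, 40.5 and 41.8 CPM in irradiated wild type, 14.0 and 14.8 CPM in unirradiated mutants, and 14.1 and 20.5 CPM in unirradiated wild type. Hist2h2be, another H2B gene, was at 52.0 and 11.7 CPM in irradiated mutants, 59.2 and 30.4 CPM in irradiated wild type, 16.9 and 12.7 CPM in unirradiated mutants, and 16.5 and 18.3 CPM in unirradiated wild type. Day 7 and day 0 libraries of Hist1h2bc did not overlap in either genotype, whereas irradiated mutant replicate 2 fell below both unirradiated mutant libraries for Hist2h2be. The H4 gene Hist1h4i showed the same position of that library, with 84.4 and 11.9 CPM in irradiated mutants, 105 and 51.7 CPM in irradiated wild type, 17.5 and 23.1 CPM in unirradiated mutants, and 21.8 and 18.2 CPM in unirradiated wild type.

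The Hist3 genes are an H2A and an H2B gene that neighbour each other on chromosome 11. Hist3h2a had 31.1 and 12.3 CPM in irradiated mutants, 19.9 and 14.0 CPM in irradiated wild type, 4.41 and 4.93 CPM in unirradiated mutants, and 4.97 and 7.91 CPM in unirradiated wild type. Its neighbour Hist3h2ba had 22.3 and 2.77 CPM in irradiated mutants, 18.5 and 12.5 CPM in irradiated wild type, 6.67 and 5.21 CPM in unirradiated mutants, and 8.75 and 8.48 CPM in unirradiated wild type. Irradiated mutant replicate 2 was the lowest of the 8 libraries for Hist3h2ba but not for Hist3h2a, whose annotated exons overlap Trim17. Hist4h4, the single H4 gene on chromosome 6, had 15.2 and 0.996 CPM in irradiated mutants, 2.70 and 8.04 CPM in irradiated wild type, 0.960 and 0.977 CPM in unirradiated mutants, and 1.41 and 1.64 CPM in unirradiated wild type.

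Day 7 after 4 Gy was compared with day 0 in mutants. All 43 tested genes had log2 fold changes above 0, with a median of 2.77 and a range of 1.0 to 6.10, beside a median of 0.15 and 56.3% above 0 over all 17327 genes tested. No histone gene passed edgeR's quasi-likelihood test with Benjamini-Hochberg adjustment at 0.05, where 0.254% of all genes were called higher and 0.346% lower. At an unadjusted p under 0.05, 30 of the 43 were higher and 0 lower, against 13.4% of all genes higher and 8.70% lower. DESeq2 called 22 of the 43 higher at an adjusted p under 0.05, against 6.30% of all genes. In 32 of the 43 genes both irradiated libraries lay above both unirradiated ones, a pattern seen in 26.9% of all genes, and over the whole family of 67 this held for 37 genes.

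The calls turned on single libraries. Without irradiated mutant replicate 2, 40 of 47 tested histone genes were called higher (median log2 fold change 3.62), beside 11.0% of all genes in that fit. Without irradiated mutant replicate 1, 2 of 46 were called higher, Hist1h2af and Hist1h4d (median 0.78), beside 4.82% of all genes.

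The smallest p-values belonged to Hist1h2af, Hist1h4d and Hist2h4. The H2A gene Hist1h2af (ENSMUSG00000061991.2, chr13:23533906-23534304) had 51.4 and 16.8 CPM in irradiated mutants, 47.1 and 46.5 CPM in irradiated wild type, 5.67 and 4.61 CPM in unirradiated mutants, and 9.23 and 5.69 CPM in unirradiated wild type. All 4 irradiated libraries lay above all 4 unirradiated ones. Its log2 fold change in mutants was 2.72 ± 0.54 (SE; adjusted p = 0.0784, edgeR's quasi-likelihood test with Benjamini-Hochberg adjustment). This gene shares 94.0% of its 50-base windows with other genes, so its counts may belong in part to other H2A genes.

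Hist1h4d, an H4 gene, had 21.3 and 2.99 CPM in irradiated mutants, 2.43 and 3.36 CPM in irradiated wild type, 0.654 and 0.372 CPM in unirradiated mutants, and 0.835 and 0.822 CPM in unirradiated wild type. Its log2 fold change in mutants was 4.52 ± 0.95 (SE; adjusted p = 0.0844, edgeR's quasi-likelihood test with Benjamini-Hochberg adjustment). Hist2h4, an H4 gene of the Hist2 cluster, had 24.4 and 2.33 CPM in irradiated mutants, 2.88 and 1.85 CPM in irradiated wild type, 0.654 and 0.419 CPM in unirradiated mutants, and 0.440 and 0.443 CPM in unirradiated wild type. Its log2 fold change in mutants was 4.60 ± 1.06 (SE; adjusted p = 0.0948, edgeR's quasi-likelihood test with Benjamini-Hochberg adjustment). For both genes, irradiated mutant replicate 2 lay between the 2 irradiated wild-type levels and replicate 1 lay far above them. Without irradiated mutant replicate 1, the log2 fold changes were 1.66 for Hist1h2af, 2.47 for Hist1h4d and 2.04 for Hist2h4.

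The size of the fold changes was described by class. In mutants, the median log2 fold change at day 7 was 4.60 over 9 H4 genes and 4.26 over 5 H1 genes, beside 2.98 over 8 H2A genes, 2.45 over 8 H3 genes and 2.13 over 13 H2B genes. An unadjusted p under 0.05 was reached by 8 of the 9 H4 genes and 4 of the 5 H1 genes, and by 7 H2A, 4 H3 and 7 H2B genes. By transcript form, the median was 3.33 over 11 genes that end near the stem-loop, 3.25 over 14 with no annotated stem-loop and 2.23 over 18 that run on past it. The order of the classes was another without irradiated mutant replicate 1, with medians of 1.68 over 10 H4 genes, 1.34 over 9 H2A genes, 0.80 over 8 H3 genes, 0.60 over 5 H1 genes and 0.17 over 14 H2B genes. The medians by form were then 1.02 over 14 genes that end near the stem-loop, 1.13 over 14 with none and 0.20 over 18 that run on past it. The difference between classes or forms was not tested.

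Linker histone genes other than Hist1h1c were low at day 0. The 5 together summed to 79.9 and 3.27 CPM in irradiated mutants, 12.1 and 10.3 CPM in irradiated wild type, 1.92 and 1.86 CPM in unirradiated mutants, and 1.63 and 1.58 CPM in unirradiated wild type. Hist1h1e, the gene for H1.4, had 26.4 and 1.16 CPM in irradiated mutants, 4.51 and 4.33 CPM in irradiated wild type, 0.654 and 0.279 CPM in unirradiated mutants, and 0.616 and 0.443 CPM in unirradiated wild type. Its annotated exons overlap Hist1h2be, so reads of either gene can be counted for the other. Hist1h1d, Hist1h1a and Hist1h1b, for H1.3, H1.1 and H1.5, had 24.8, 14.7 and 13.9 CPM in irradiated mutant replicate 1 and 0.996, 0.609 and 0.498 CPM in replicate 2. The log2 fold changes in mutants of Hist1h1a, Hist1h1b, Hist1h1d and Hist1h1e were 4.26 ± 1.39, 5.08 ± 1.41, 3.92 ± 1.22 and 4.84 ± 1.30 (SE), with adjusted p-values of 0.113 to 0.147 in edgeR's quasi-likelihood test with Benjamini-Hochberg adjustment. That of Hist1h1c was 1.16 ± 0.51, with an adjusted p of 0.234 in edgeR's quasi-likelihood test with Benjamini-Hochberg adjustment. These log2 fold changes were 0.60 for Hist1h1a, 1.22 for Hist1h1b, 0.20 for Hist1h1d, 1.24 for Hist1h1e and 0.03 for Hist1h1c without irradiated mutant replicate 1.

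H4 genes other than Hist1h4i summed to 183 and 14.4 CPM in irradiated mutants, 23.3 and 26.6 CPM in irradiated wild type, 4.62 and 4.56 CPM in unirradiated mutants, and 4.75 and 6.20 CPM in unirradiated wild type. The largest contributors were Hist1h4k and Hist1h4j, which lie near each other in the Hist1 cluster. Hist1h4k had 56.5 and 2.99 CPM in irradiated mutants, 6.67 and 4.42 CPM in irradiated wild type, 1.09 and 1.21 CPM in unirradiated mutants, and 0.703 and 0.569 CPM in unirradiated wild type. Hist1h4j had 34.1 and 1.83 CPM in irradiated mutants, 3.88 and 3.27 CPM in irradiated wild type, 0.393 and 0.419 CPM in unirradiated mutants, and 0.132 and 0.569 CPM in unirradiated wild type. Hist1h4k, whose promoter above holds TATAAA and no CCAAT, shares 71.5% of its 50-base windows with other genes.

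Hist1h2ak (ENSMUSG00000063021.3, chr13:21753435-21753827), an H2A gene near Hist1h4k, had the largest log2 fold change of the 43 in mutants, 6.10 ± 1.48 (SE; adjusted p = 0.103, edgeR's quasi-likelihood test with Benjamini-Hochberg adjustment). Its levels were 58.0 and 1.72 CPM in irradiated mutants, 5.23 and 10.4 CPM in irradiated wild type, 0.480 and 0.372 CPM in unirradiated mutants, and 0.528 and 0.380 CPM in unirradiated wild type. All 4 irradiated libraries lay above the unirradiated ones, with the lowest and the highest of them in the mutant pair. The log2 fold change was 1.94 without irradiated mutant replicate 1.

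**Figure D2:**
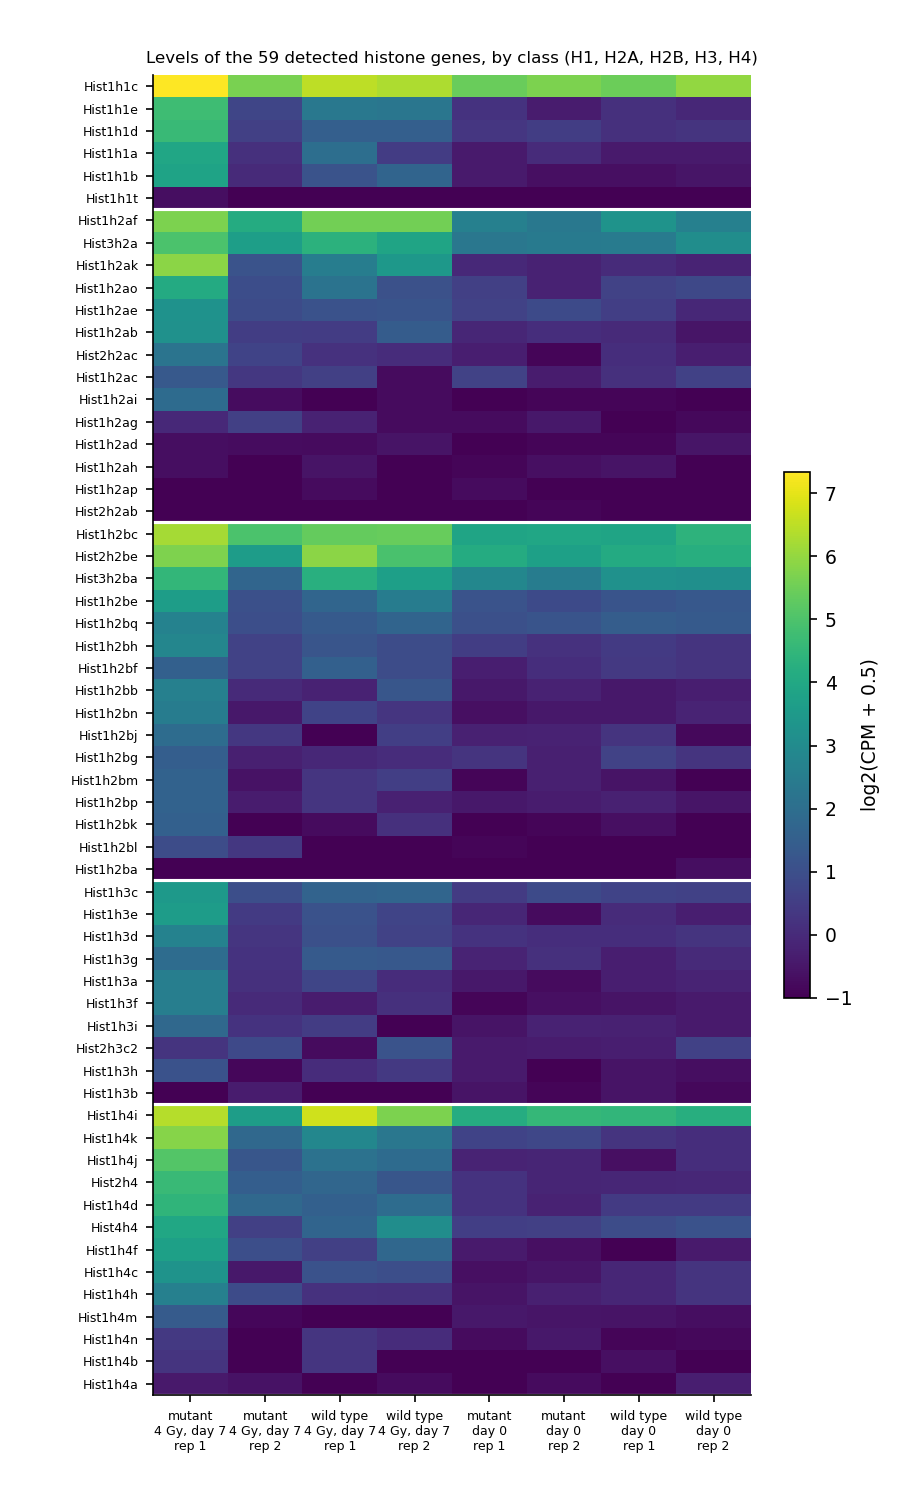
Level of each of the 59 detected histone genes in each library, as log2(CPM + 0.5) by colour, with genes in rows by class and by mean level and libraries in columns. The column of irradiated mutant replicate 1 is the brightest in 47 of the 59 genes, and Hist1h1c, Hist1h2bc, Hist2h2be and Hist1h4i are among the brighter genes in every column.

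Most of the family was split between the irradiated mutant pair. Of the 59 detected genes, 53 were higher and 3 lower in replicate 1 than in replicate 2, and 47 had their highest level of all 8 libraries in replicate 1. Among the 43 tested genes these shares were 97.7% and 93.0%, against 45.9% and 21.4% of all genes tested. The 60 genes outside the steadily present ones summed 11.2-fold higher in replicate 1 than in replicate 2, and the 7 steadily present ones 3.50-fold. The 2 sets were split by level in these same libraries, replicate 2 included. A larger ratio in the 60 can follow from that split alone. For single genes the ratio was 3.24 for Hist1h1c, 2.40 for Hist1h2bc and 3.05 for Hist1h2af, beside 33.8 for Hist1h2ak, 24.9 for Hist1h1d and 18.9 for Hist1h4k. Among genes outside the steadily present 7, replicate 1 also stood 6.41-fold above irradiated wild-type replicate 1 in the sum. In the Hist1 cluster, split at 23 Mb of chromosome 13, replicate 1 stood far above replicate 2 in both stretches, with 214 and 14.1 CPM in irradiated mutants below 23 Mb and 208 and 21.8 CPM above it (22 and 28 genes outside the steadily present ones).

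The same comparison was made in wild type. Of the 43 tested genes, 40 had log2 fold changes above 0, with a median of 1.40 and a range of -0.84 to 4.07, beside a median of 0.09 and 54.2% above 0 over all genes. No histone gene was called by edgeR's quasi-likelihood test with Benjamini-Hochberg adjustment, with 0.0115% of all genes called higher and 0.0462% lower. At an unadjusted p under 0.05, 12 were higher and 0 lower, against 8.69% of all genes higher, and DESeq2 called 4 of 41 with an adjusted p higher at 0.05, against 2.74% of all genes. Both irradiated libraries lay above both unirradiated ones in 34 of the 43 and below them in 1, against 29.7% and 27.8% of all genes, and over the 67 genes in 38 and 3. The count also changed when a library outside the comparison was left out. It was 13 of 46 tested without irradiated mutant replicate 1, beside 6.29% of all genes called higher, and 16 of 47 without irradiated mutant replicate 2, beside 6.98%. The cause of this change was not tested.

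Hist1h2af again had the smallest p, with a log2 fold change in wild type of 2.64 ± 0.54 (SE; adjusted p = 0.126, edgeR's quasi-likelihood test with Benjamini-Hochberg adjustment). Hist1h2bc followed with 1.25 ± 0.43 and Hist1h2ak with 4.07 ± 1.39 (SE; adjusted p = 0.219 and 0.221, edgeR's quasi-likelihood test with Benjamini-Hochberg adjustment). By class, the median log2 fold change in wild type was 3.03 over the 5 H1 genes, 1.97 over the 9 H4 genes, 1.33 over the 8 H2A genes, 1.33 over the 8 H3 genes and 1.10 over the 13 H2B genes. H1 and H4 had the larger medians, as in mutants with all 8 libraries, but the 2 comparisons share 1 fit and the classes were not tested against each other.

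**Figure D3:**
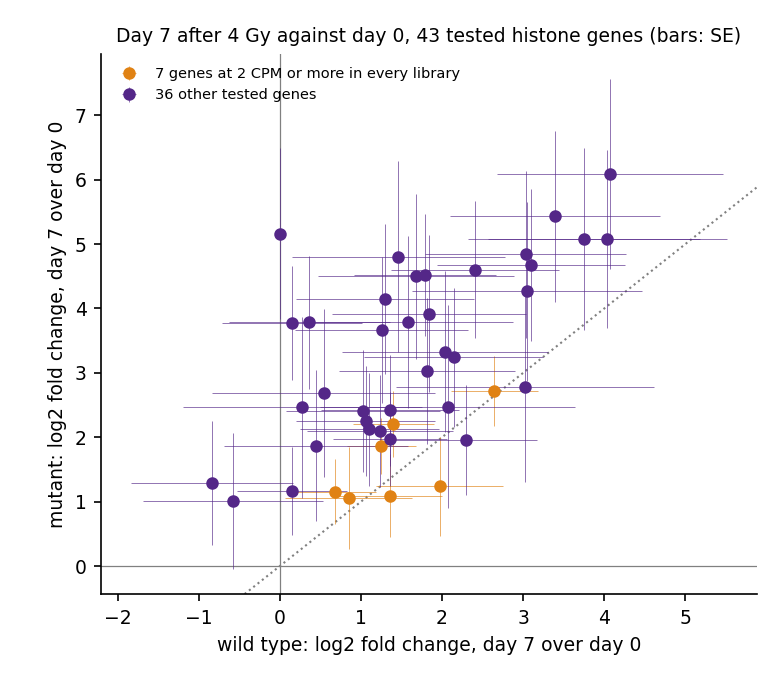
Log2 fold change of day 7 over day 0 in mutants (vertical axis) and in wild type (horizontal axis) for the 43 tested histone genes, with SE bars and a dotted line where both are equal. All 43 lie above 0 in mutants with a median of 2.77, against a median of 1.40 in wild type.

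At day 7, mutants were compared with wild type. Of the 43 tested genes, 37 had log2 fold changes above 0, with a median of 1.53, beside a median of 0.02 over all genes. No histone gene was called by edgeR's quasi-likelihood test with Benjamini-Hochberg adjustment or by DESeq2, and edgeR called 0% of all genes. At an unadjusted p under 0.05, 4 were higher and 0 lower, against 3.36% of all genes higher. The libraries did not overlap in 3 genes, all higher in mutants, against 10.4% of all genes higher and 7.46% lower, and over the 67 genes in 7. The direction rested on irradiated mutant replicate 1: without it the median was -0.82 and 2 genes, Hist1h4i and Hist3h2ba, were called lower, beside 1.49% of all genes. Without replicate 2 the median was 2.43 and 7 genes were called higher, beside 0.400% of all genes.

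The 3 smallest p-values at day 7 were those of Hist1h2bl, Hist1h4h and Hist2h4. Hist1h2bl, an H2B gene, had 12 and 14 counts in irradiated mutants and 0 counts in both irradiated wild-type libraries. Its mean in irradiated mutants, 1.088 CPM, was 4.07 times the mean irradiated wild-type floor of 0.268 CPM, set at 3 counts per library. This ratio leaves out counting error in the mutants, so it is not a lower bound. Hist1h2bl had 1 count in the other 6 libraries together and so passed the filter through the irradiated mutants alone. The ratio is therefore a description with no test. Hist1h2bl shares 82.83% of its sequence windows with transcripts of other genes, so its zeros are uncertain to that extent. With Hist1h2bl at that ratio the median of the 43 stayed at 1.53, and the others ran from -0.71 to 2.48. Hist1h4h, an H4 gene, had 5.72 and 1.38 CPM in irradiated mutants and 0.631 and 0.618 CPM in irradiated wild type, a log2 fold change of 2.47 ± 0.85 (SE), which was 1.18 without irradiated mutant replicate 1. For Hist2h4 the log2 fold change was 2.48 ± 0.96 (SE), and it was 0.01 without irradiated mutant replicate 1. The adjusted p was 1.0 for both in edgeR's quasi-likelihood test with Benjamini-Hochberg adjustment.

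Without irradiation, mutants and wild type were close. The median log2 fold change of the 43 genes was -0.19, with 16 above 0, beside a median of -0.02 over all genes. None passed edgeR's quasi-likelihood test with Benjamini-Hochberg adjustment or DESeq2, and 0 had an unadjusted p under 0.05, against 1.80% of all genes higher and 0.439% lower. Libraries did not overlap in 3 genes that were higher and in 14 that were lower in mutants, against 20.8% and 25.0% of all genes, and over the 67 in 6 and 15. The smallest p-values were those of Hist1h4h, Hist2h2ac and Hist1h4c, with log2 fold changes of -1.15 ± 0.88, -1.30 ± 1.03 and -1.78 ± 1.46 (SE), on levels under 1 CPM in all 4 libraries.

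The difference between the 2 irradiation effects had a median of 1.33 on the log2 scale over the 43 genes, with 39 above 0, where a positive value means a larger effect in mutants. None passed edgeR's quasi-likelihood test with Benjamini-Hochberg adjustment or DESeq2, edgeR called 0% of all genes, and 2 had an unadjusted p under 0.05, against 1.09% of all genes. Without irradiated mutant replicate 1 the median was -0.91.

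**Figure D4:**
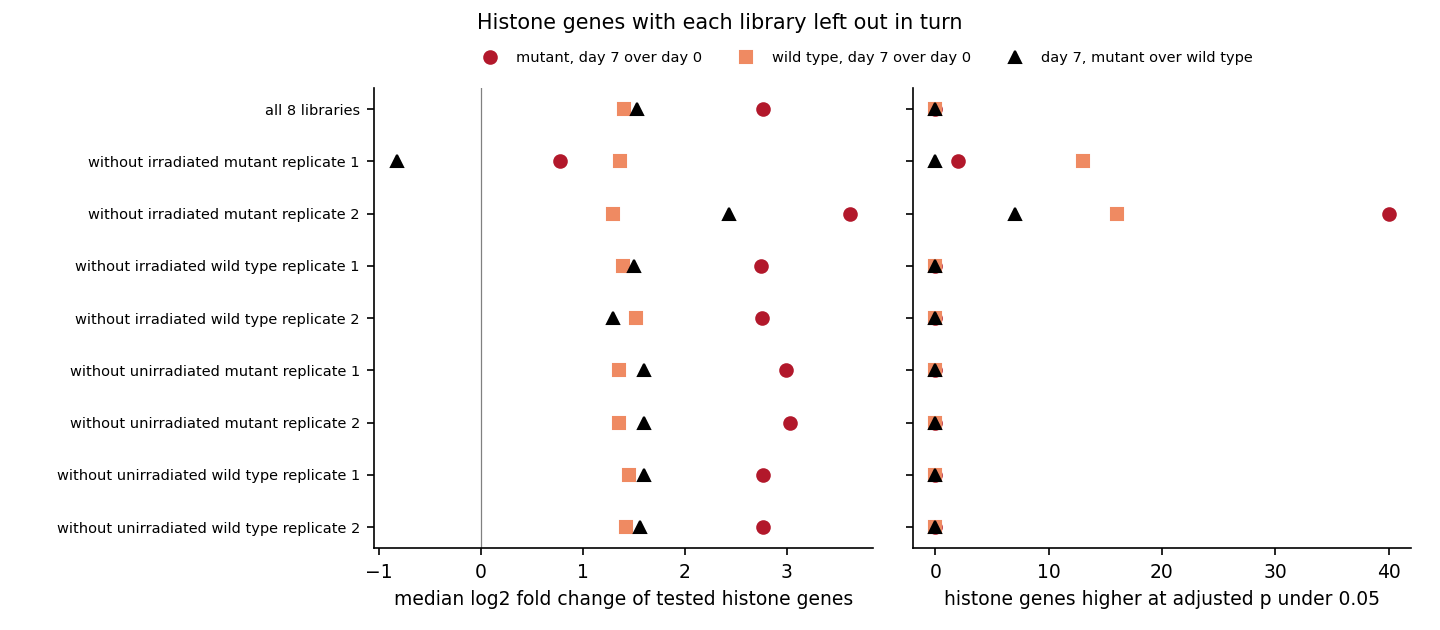
Median log2 fold change of the tested histone genes (left) and number called higher by edgeR at an adjusted p under 0.05 (right), with all 8 libraries and with each left out, for mutant day 7 over day 0, wild-type day 7 over day 0, and mutant over wild type at day 7. Leaving out irradiated mutant replicate 1 takes the median at day 7 to -0.82, and leaving out replicate 2 takes the calls in mutants to 40.

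Genes of DNA replication and division were set beside the family. The summed level of 32 S phase genes, such as the Mcm helicase subunits and Rrm2, was 10383 and 2413 CPM in irradiated mutants, 11054 and 4470 CPM in irradiated wild type, 3871 and 3987 CPM in unirradiated mutants, and 3899 and 3156 CPM in unirradiated wild type. That of 22 mitotic genes was 14077 and 2239 CPM in irradiated mutants, 11047 and 5801 CPM in irradiated wild type, 3874 and 3394 CPM in unirradiated mutants, and 3402 and 2384 CPM in unirradiated wild type. Irradiated mutant replicate 1 and irradiated wild-type replicate 1 were thus close in S phase genes. In contrast, they differed in the 60 histone genes outside the steadily present 7, a set split by level in these same libraries. Per 1000 CPM of S phase genes, these 60 amounted to 44.9 and 17.2 CPM in irradiated mutants, 6.58 and 18.2 CPM in irradiated wild type, 5.35 and 4.94 CPM in unirradiated mutants, and 5.99 and 7.44 CPM in unirradiated wild type. Irradiated wild-type replicate 1 was at the level of the unirradiated libraries in this ratio, and the 3 other irradiated libraries lay above them.

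Of the 32 S phase genes and the 22 mitotic genes, 0 were called in either irradiation comparison by edgeR's quasi-likelihood test with Benjamini-Hochberg adjustment or by DESeq2. At an unadjusted p under 0.05, 0 S phase genes were higher in irradiated than in unirradiated mutants and 4 in irradiated than in unirradiated wild type, with median log2 fold changes of 0.59 in mutants and 0.92 in wild type. The mitotic genes had 3 in each comparison, and medians of 0.85 in mutants and 1.33 in wild type. The medians in mutants without irradiated mutant replicate 1 were -0.95 for S phase genes and -0.92 for mitotic genes, with 0 called, and without replicate 2 they were 1.11 and 1.51, with 8 and 13 called higher.

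Other RNAs that lack a poly(A) tail were measured for the same reason as the transcript ends. Rn7sk, the 7SK RNA that holds the elongation factor P-TEFb, had 59.7 and 22.1 CPM in irradiated mutants, 11.8 and 16.4 CPM in irradiated wild type, 2.44 and 2.79 CPM in unirradiated mutants, and 2.46 and 1.71 CPM in unirradiated wild type. Rpph1, the RNA of ribonuclease P, had 49.6 and 11.8 CPM in irradiated mutants, 8.47 and 8.57 CPM in irradiated wild type, 0.393 and 0.326 CPM in unirradiated mutants, and 0.528 and 0.822 CPM in unirradiated wild type. For both, all irradiated libraries lay above all unirradiated ones and irradiated mutant replicate 1 was the highest. Both rose in irradiated against unirradiated mutants, by a log2 fold change of 6.38 ± 0.79 for Rpph1 and 3.96 ± 0.54 for Rn7sk (SE; adjusted p = 0.027 and 0.0317, edgeR's quasi-likelihood test with Benjamini-Hochberg adjustment). Both were still called without irradiated mutant replicate 1, with log2 fold changes of 4.96 and 3.02.

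Over the 21 genes of such RNAs, of which 6 were tested and 8 had no count in any library, the sum was 119 and 38.5 CPM in irradiated mutants, 24.2 and 30.7 CPM in irradiated wild type, 5.37 and 6.00 CPM in unirradiated mutants, and 5.36 and 4.49 CPM in unirradiated wild type. Rpph1 and Rn7sk made up most of this sum in each irradiated library. Of the 6 tested genes, 4 had log2 fold changes above 0 in mutants at day 7 against day 0, with a range of -0.98 to 6.38. In wild type 5 did, with a range of -0.46 to 3.66. The part that capture of RNAs without a tail has in the histone levels was not tested.

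**Figure D5:**
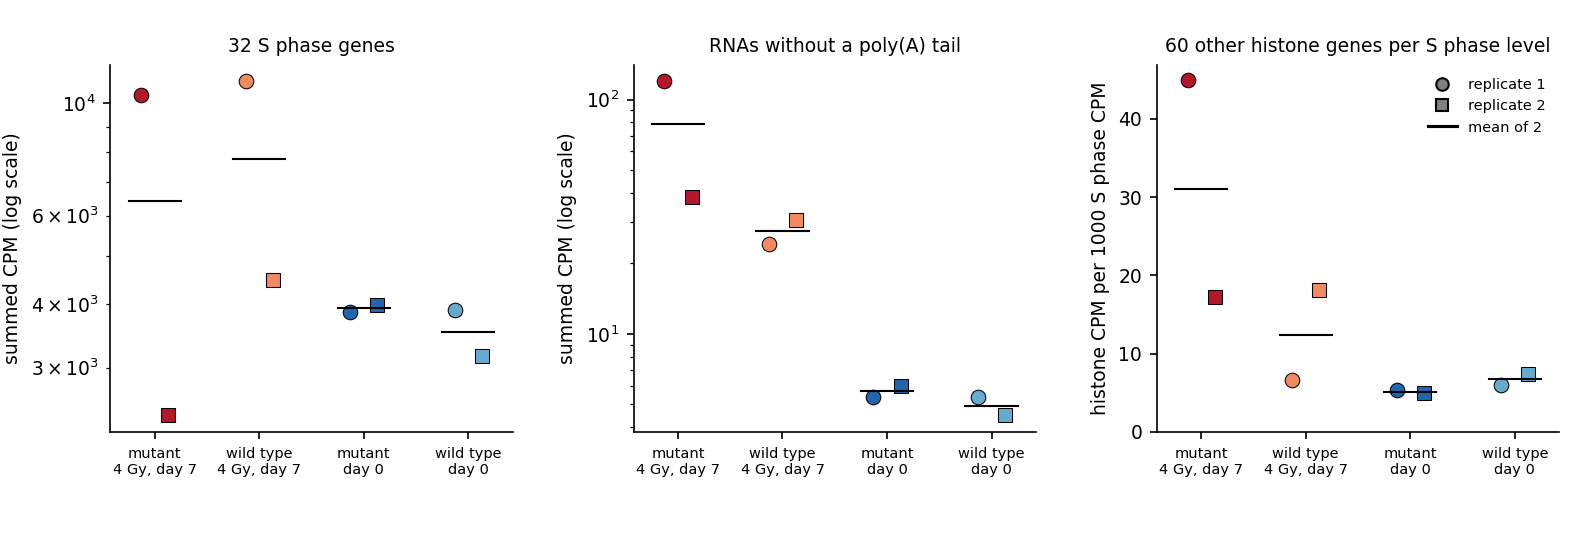
Summed CPM (log scale) of 32 S phase genes (left) and of RNAs without a poly(A) tail (middle), and CPM of the 60 other histone genes per 1000 CPM of S phase genes (right), by group, with a point for each library and a line at the mean of 2. In the right panel irradiated mutant replicate 1 is at 44.9, against 4.94 to 18.2 in the other libraries.

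Cell type markers also differed between the libraries, and those of some types along the same split of the irradiated mutant pair. The 15 erythroid precursor genes, globins included and none at 0 in any library, summed to 180620 and 14991 CPM in irradiated mutants, 70670 and 78703 CPM in irradiated wild type, 21437 and 21111 CPM in unirradiated mutants, and 28037 and 46901 CPM in unirradiated wild type. The 12 B cell genes, none at 0, summed to 114 and 1335 CPM in irradiated mutants, 848 and 1665 CPM in irradiated wild type, 2709 and 2730 CPM in unirradiated mutants, and 4085 and 5064 CPM in unirradiated wild type. Irradiated mutant replicate 1 was the highest of the 8 libraries in erythroid genes and the lowest in B cell genes, and replicate 2 was the lowest in erythroid genes. Their part in the histone levels was not tested. The stroma genes summed to 737 and 2692 CPM and the T cell genes to 233 and 1740 CPM in irradiated mutants, so replicate 2 was the higher of the pair in both.

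Granulocyte and macrophage genes did not follow that split. The 16 granulocyte genes summed to 267 and 297 CPM in irradiated mutants, 236 and 110 CPM in irradiated wild type, 6420 and 12748 CPM in unirradiated mutants, and 1900 and 1627 CPM in unirradiated wild type. At 0 were Elane and Ctsg, both in irradiated wild-type replicate 1. At day 7 against day 0, 0 of the 16 had log2 fold changes above 0 in mutants (median -5.27, or -5.21 without irradiated mutant replicate 1 and -5.96 without replicate 2). Of the 16, 12 were called lower there by edgeR's quasi-likelihood test with Benjamini-Hochberg adjustment, beside 0.346% of all genes. In wild type 1 was above 0 (median -4.06) and 0 were called. At an unadjusted p under 0.05 in that test, 14 were lower in wild type, against 8.57% of all genes. DESeq2 called 16 lower in mutants and 12 in wild type, against 870 of 17327 and 704 of 16655 genes. The 12 macrophage genes, none at 0, summed to 4561 and 3647 CPM in irradiated mutants, 1583 and 2260 CPM in irradiated wild type, 1885 and 1506 CPM in unirradiated mutants, and 1602 and 1470 CPM in unirradiated wild type. All 12 had log2 fold changes above 0 in mutants at day 7 against day 0 (median 1.07). The median was 0.54 without irradiated mutant replicate 1, with 10 above 0, and 1.19 without replicate 2, with 12 above 0. With all 8 libraries, 7 were higher at an unadjusted p under 0.05 in edgeR's quasi-likelihood test, against 13.4% of all genes. DESeq2 called 5 higher, against 6.30% of all genes. With Benjamini-Hochberg adjustment edgeR called 1 higher, C1qc, a subunit of complement C1q, beside 0.254% of all genes. C1qc had 497 and 538 CPM in irradiated mutants and 180 and 226 CPM in irradiated wild type. Its unirradiated levels were 129 and 119 CPM in mutants and 138 and 143 CPM in wild type. Its log2 fold change in mutants was 2.07 ± 0.31 (SE; adjusted p = 0.037, edgeR's quasi-likelihood test with Benjamini-Hochberg adjustment). The part of these cells in the histone levels was not tested either.

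Factors that make and bind histone mRNA had medians nearer 0 than the histone genes with all 8 libraries. Of 17 tested processing factors, 8 had log2 fold changes above 0 in mutants and 13 in wild type at day 7 against day 0, with medians of -0.06 and 0.23. The median in mutants was -0.50 without irradiated mutant replicate 1, with 2 above 0, and 0.13 without replicate 2, with 11 above 0. With all 8 libraries, none was called in any of the 5 contrasts by edgeR's quasi-likelihood test with Benjamini-Hochberg adjustment. At an unadjusted p under 0.05, 1 was lower in mutants, and 1 was higher and 2 were lower in wild type. DESeq2 called Sympk lower in both. Slbp, the stem-loop binding protein, is also among the S phase genes above. It had 617 and 158 CPM in irradiated mutants, 726 and 309 CPM in irradiated wild type, 184 and 165 CPM in unirradiated mutants, and 178 and 168 CPM in unirradiated wild type. Its log2 fold change at day 7 was 1.15 ± 0.65 in mutants and 1.58 ± 0.65 in wild type (SE; adjusted p = 0.324 and 0.276, edgeR's quasi-likelihood test with Benjamini-Hochberg adjustment). Its value in mutants was -0.19 without irradiated mutant replicate 1, and without replicate 2 it was 1.68 and called. Sympk, the scaffold of the cleavage complex, had 31.4 and 28.3 CPM in irradiated mutants, 38.0 and 30.5 CPM in irradiated wild type, 81.4 and 86.1 CPM in unirradiated mutants, and 85.6 and 73.4 CPM in unirradiated wild type. All 4 irradiated libraries lay below the unirradiated ones, with log2 fold changes of -1.49 ± 0.27 in mutants and -1.22 ± 0.26 in wild type (SE; adjusted p = 0.066 and 0.136, edgeR's quasi-likelihood test with Benjamini-Hochberg adjustment). In mutants it was called lower without either irradiated mutant library, at -1.62 without replicate 1 and -1.56 without replicate 2.

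Replacement histone genes are transcribed through the cell cycle, mostly as ordinary polyadenylated mRNAs. The 11 genes summed to 5698 and 2326 CPM in irradiated mutants, 5109 and 3333 CPM in irradiated wild type, 2256 and 2380 CPM in unirradiated mutants, and 2280 and 2441 CPM in unirradiated wild type. Of the 11, 10 had log2 fold changes above 0 in each irradiation comparison, with medians of 0.82 in mutants and 0.52 in wild type, and 0 were called by edgeR's quasi-likelihood test with Benjamini-Hochberg adjustment or by DESeq2, or reached an unadjusted p under 0.05. The median in mutants was 0.08 without irradiated mutant replicate 1, and without replicate 2 it was 1.03 with 5 called higher. H2afz, the gene for H2A.Z, had 1472 and 505 CPM in irradiated mutants, 1459 and 750 CPM in irradiated wild type, 506 and 530 CPM in unirradiated mutants, and 494 and 454 CPM in unirradiated wild type. Irradiated mutant replicate 1 and irradiated wild-type replicate 1 were level for H2afz, unlike for the sum of the 60 other clustered genes. The 18 histone chaperone genes had medians of 0.10 in mutants and 0.33 in wild type on the log2 scale, the one in mutants being -0.67 without irradiated mutant replicate 1 and 0.56 without replicate 2. None was called by edgeR's quasi-likelihood test with Benjamini-Hochberg adjustment, 1 in each comparison was lower at an unadjusted p under 0.05, and DESeq2 called 1 lower, Ipo4 in mutants.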

How the data were processed

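Spleen RNA was extracted with Trizol and made into libraries with the VAHTS mRNA-seq v2 kit, per the labels' protocols. The deposited file holds counts of reads per gene, whole numbers without normalization, with 1 column for each of the 8 samples. The submitters' processing notes name Trim Galore, Subread and featureCounts, and the builds hg38 and mm10 for the submission. No version, annotation release, strand setting or rule for multi-mapped reads is given in the sources used here, so reads of near-identical, overlapping or antisense histone genes may be counted for another gene. A growth protocol in the labels describes human cells and was not used.

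Groups and replicate numbers came from the sample titles. Symbols, gene types and exons came from GENCODE M21 (GRCm38), which matched 52403 of the 52636 identifiers. The members and the lists of other genes were chosen with earlier results of these data known. Genes were filtered by filterByExpr (minimum count 10, minimum total count 15), which left 17327, and scaled by TMM. The main test was edgeR's quasi-likelihood test (edgeR 4.0.16, R 4.3.3), fitted once to the 8 libraries with 1 coefficient per group, with p-values adjusted by Benjamini-Hochberg over the genes tested and a threshold of 0.05. The fit left 4 residual degrees of freedom, and the common dispersion was 0.152. SEs are those of log2 fold changes. Contrasts were irradiation within each genotype, genotype at each day, and the difference between the irradiation effects. The genes named were the 10 with the highest mean CPM, the Hist3 and Hist4 genes, the H1 genes tested and the 3 with the smallest p in each contrast. For other lists the genes named were among the 3 with the smallest p in a contrast.

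The replicates of each group differed beyond sampling noise (chi-square divided by its degrees of freedom 19.1 to 330.8), so each library was counted as 1 sample. Alternatives were DESeq2 1.42.0, RLE scaling, other filters, fits of 2 groups alone, a replicate block and leaving out each library. The fit was tested on simulated counts. Windows of 50 bases shared between transcripts measured how far reads of a gene can be told from others.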

Additional observations from a re-analysis of the deposited data

Results flagged for a closer look

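For 2 histone genes, the mutant libraries lay above the wild-type ones at day 7 after irradiation and below them without irradiation. They had no overlap in CPM at either time. The difference between these genotype effects was 3.62 ± 1.22 (SE) on the log2 scale for Hist1h4h (effects 2.47 and -1.15) and 3.42 ± 1.41 for Hist2h2ac (effects 2.12 and -1.30). The differences were 2.31 for Hist1h4h and 2.26 for Hist2h2ac without irradiated mutant replicate 1. Their unadjusted p-values with all 8 libraries were 0.0182 and 0.0423, and both adjusted p-values were 1.0 in edgeR's quasi-likelihood test with Benjamini-Hochberg adjustment. Hist2h2ac shares 55.0% and Hist1h4h 45.8% of their 50-base windows with transcripts of other genes. The order without irradiation rests on few counts. Hist1h4h had 4 and 7 counts in mutants and 10 and 11 in wild type. Hist2h2ac had 7 and 1 in mutants and 13 and 5 in wild type, with 0.305 against 0.316 CPM at the closest. Of all genes, 10.4% did not overlap and were higher in mutants at day 7, and 25.0% were lower without irradiation. The share with both was not counted, so whether 2 such genes are many or few for the family is not known.

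Among the 3 histone pseudogenes outside the family, Hist3h2bb-ps had 2.80 CPM in irradiated mutant replicate 1, against 0.308 and 0.063 CPM in unirradiated wild type. Hist1h2aj had 2.92 CPM in that library, against 0.176 and 0.253 CPM in unirradiated wild type. Both were higher there than in any other library, and Hist1h2al had no count.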

How the results depend on the processing

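Counts of called genes moved with the setting while most medians kept their sign. For mutants at day 7 against day 0, no histone gene was called in the main fit, 22 were called higher with DESeq2, 27 without a low-count filter and 1, Hist1h2af, with a replicate block; leaving out 1 library gave 0 to 40 called, medians of 0.78 to 3.62 and log2 ratios of summed CPM of 0.37 to 2.68. For wild type, DESeq2 called 4 higher, the fit of these 2 groups alone 7 and no filter 11, and leaving out 1 library gave 0 to 16. The wild-type median of 1.40 was 1.35 with DESeq2 and with RLE scaling, 1.38 in the fit of 2 groups, 1.26 without a filter, 1.44 with a stricter one, and 1.30 to 1.52 with 1 library left out. For mutants against wild type at day 7, no filter gave 1 histone gene called higher, beside 154 of 29527 genes. Leaving out 1 library gave medians of -0.82 to 2.43 and log2 ratios of the sums of -1.15 to 1.16. The main median was 1.53 and the main log2 ratio 0.47, and both turned below 0 without irradiated mutant replicate 1. For mutants against wild type without irradiation, the median of -0.19 was -0.14 without a filter, -0.26 with the replicate block and -0.24 to -0.15 with 1 library left out. The difference between the irradiation effects had medians of -0.91 to 2.16 and log2 ratios of the sums of -0.96 to 1.34 with 1 library left out, again below 0 without irradiated mutant replicate 1. The cause of these shifts was not tested.

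No label says that equal replicate numbers belong together, and the main fit did not pair them. Deviations of same-numbered libraries correlated at 0.035 to 0.465 across genes, and not all pairs were over 0.1. The highest values were 0.465 between the irradiated groups and 0.245 between the unirradiated groups. These values do not decide whether the numbers pair samples. Of 202 alternative values for 15 named gene results, 177 stayed on their side of the threshold, 25 passed it, and 0 changed sign. These 15 results were those of the 3 genes with the smallest p in each contrast. Some other named genes changed sign without irradiated mutant replicate 1, while others kept it. In mutants at day 7 against day 0, the log2 fold change of Hist1h4i went from 1.24 to -0.82 and that of Hist3h2ba from 1.06 to -1.15. For mutants against wild type at day 7, that of Hist1h2ak went from 1.92 to -2.14. With 2 samples a group, counts near the floor and shared sequence between copies limit all values of the low members.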
